A study of Homo sapiens with 8 samples.

Results

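The comparison covers the change in open chromatin between day 1 and day 3 of SMARCB1 re-expression, measured by ATAC-seq (DNA that a transposase can reach is cut, tagged and sequenced). The cells were G401, a widely used kidney rhabdoid tumour line, carrying a stable doxycycline-inducible SMARCB1. Its members are all peaks of the day 1 and day 3 lists, taken by list name, 227482 of the 411408 peaks in all 4 deposited lists. Both groups, labelled SMARCB1 +/+, had received 1 µg/ml doxycycline, for 1 day or for 3 days, with 2 replicates each (4 of the 8 samples). Day 0, labelled SMARCB1 -/-, was not induced and was used to class a region as open before induction or not. Day 7, also labelled SMARCB1 +/+, had received 1 µg/ml doxycycline for 7 days, with 2 replicates. It was used only to follow regions after day 3. Each replicate used 100000 cells of the line, which was kept in serum free of tetracycline. The sources used here do not say whether the line is 1 clone or whether the replicates were separate cultures.

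SMARCB1 is a core subunit of SWI/SNF, a complex that uses ATP to slide or evict nucleosomes, and its loss is the defining lesion of rhabdoid tumours. Without it, SWI/SNF complexes are known to be poorly held at enhancers, the distal elements that set cell-type gene expression. AP-1, a dimer of FOS and JUN family proteins, is known to bind enhancers together with SWI/SNF, and the title of the series names that cooperation. A peak that appears after induction is a place where the transposase gained access, which can follow from nucleosome removal, factor binding or both.

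Since each day has a single deposited peak list, differences between days carry no error over replicates and were not tested. The day 1 list held 109876 peaks covering 65.6 Mb and the day 3 list 117606 peaks covering 70.0 Mb. For each peak the lists give the authors' fold, the summit height over the local background of the same list. Summit reads were recovered from fold and p-value, and a scaled summit is these reads divided by the genome-wide background of the list, 6.04 reads on day 1 and 6.73 on day 3. The list taken as day 0 is the only list whose name gives no day, so its identity rests on elimination. Intervals in parentheses are at the 95% level. For shares they assume that peaks are independent of each other, and for ratios of summits they hold counting error alone. In a bulk culture, a region open in more cells and a region open more widely in each cell cannot be told apart. Genes and sequences at the regions were not analysed here, because the references at hand belong to another genome build. All coordinates are hg19.

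Between day 1 and day 3 more open regions were added than removed. New peaks, those overlapping no day 1 peak by 1 bp or more, numbered 24073, or 20.5% of the day 3 list (20.2 to 20.7). Lost peaks, day 1 peaks with no day 3 overlap, numbered 16139, or 14.7% of the day 1 list (14.5 to 14.9). The remaining 93533 day 3 peaks and 93737 day 1 peaks overlapped each other. Day 3 peaks covered 14.5 Mb that lay outside day 1 peaks, of which 7.64 Mb (52.7%) were in new peaks and 6.85 Mb (47.3%) were added at the edges of shared ones. Day 1 peaks covered 10.0 Mb outside day 3 peaks, of which 4.70 Mb were in lost peaks and 5.32 Mb at edges. The surplus of gains goes with the longer day 3 list. With both lists held to their 80744 highest peaks by q-value, 11404 were new and 11225 lost, and equal lengths bring these counts together by construction.

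Most of the peaks that came or went lay in regions that had not been called before induction. Of the new peaks, 21125 (87.8%, 87.3 to 88.2) had no day 0 peak either, so day 3 was the earliest list that showed them. The other 2948 (12.2%) overlapped a day 0 peak, that is, they were called on day 0, absent on day 1 and called again on day 3. Of the lost peaks, 11840 (73.4%, 72.7 to 74.0) had no day 0 peak and had therefore been seen on day 1 but not on day 0 or day 3. Seen from day 1, 29.4% (29.0 to 29.9) of the 40217 peaks without a day 0 peak were lost by day 3, against 6.17% (5.99 to 6.35) of the 69659 peaks with one. Seen from day 3, 43.0% of the 49181 peaks without a day 0 peak were new since day 1, against 4.31% of the 68425 peaks with one.

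**Figure D1:**
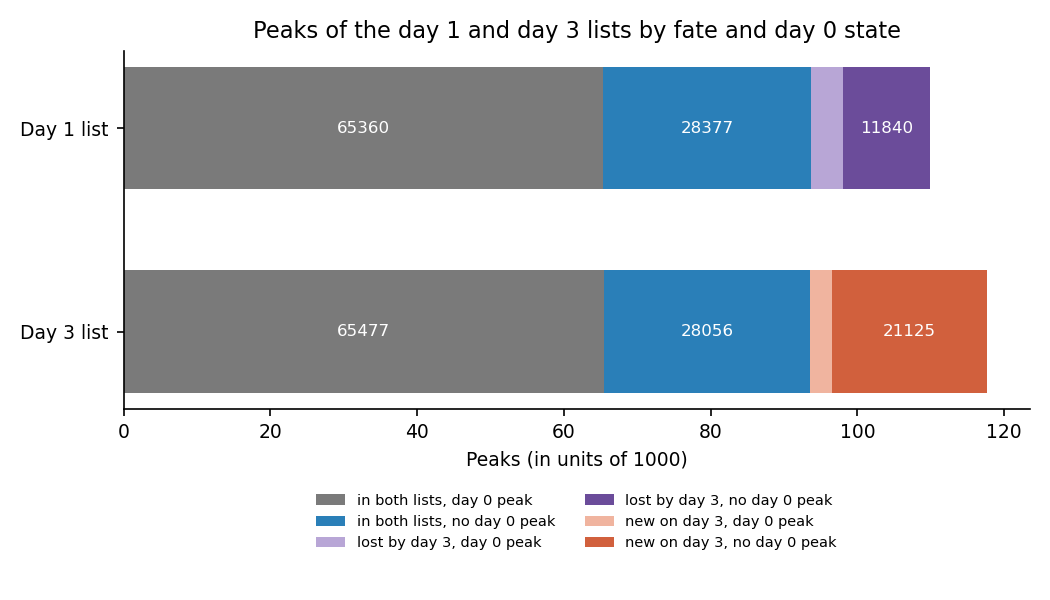
Peaks of the day 1 and day 3 lists (horizontal axis, in units of 1000 peaks), stacked by whether they overlap the other list and whether they overlap a day 0 peak. The shared parts are alike in both bars, and the largest changing parts are the 21125 new and 11840 lost peaks without a day 0 peak.

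Most peaks that came or went were weak and narrow. New peaks had a median fold of 2.98 (quartiles 2.65 and 3.46), a median width of 283 bp and a median of 30 summit reads. Day 3 peaks shared with day 1 had a median fold of 4.22, a width of 548 bp and 63 summit reads. Lost peaks resembled the new ones, with a median fold of 2.94, a width of 265 bp and 28 summit reads. At the smallest width in either list, 200 bp, stood 6.24% of new and 7.78% of lost peaks but 0.711% of shared day 3 peaks. Peaks at the edge of the overlap rule were also weak. The 42 day 3 peaks that overlapped a day 1 peak by 1 to 10 bp had a median fold of 2.70, and the 21 new peaks within 10 bp of a day 1 peak had 2.48.

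Over all peaks, gain exceeded loss in every fold class, and this balance came from peaks without a day 0 peak. Among peaks with a fold from 2.5 to 3, 41.5% of day 3 peaks were new and 33.1% of day 1 peaks were lost. From 4 to 5 these shares were 10.2% and 3.60%, and from 5 to 6 they were 3.59% and 0.353%, or 471 new against 42 lost peaks. At a fold of 6 or more, called strong here, 135 of 21417 day 3 peaks were new (0.63%) and 4 of 22130 day 1 peaks were lost (0.0181%). Counts at other limits were 606 and 46 at a fold of at least 5, and 2555 and 660 at a fold of at least 4. With a reciprocal overlap of 50% required, 514 strong peaks were new and 102 lost, the added ones being peaks that overlap a peak of the other day by less than that. Within every fold class, peaks without a day 0 peak were more often new than peaks with one, for example 26.2% against 1.39% at a fold from 4 to 5. The lost shares in that class were 6.28% without and 2.46% with a day 0 peak. Among peaks with a day 0 peak the lost share was the larger one in every fold class, for example 18.5% lost against 13.0% new at a fold below 2.5 and 10.8% against 6.66% from 3 to 4.

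**Figure D2:**
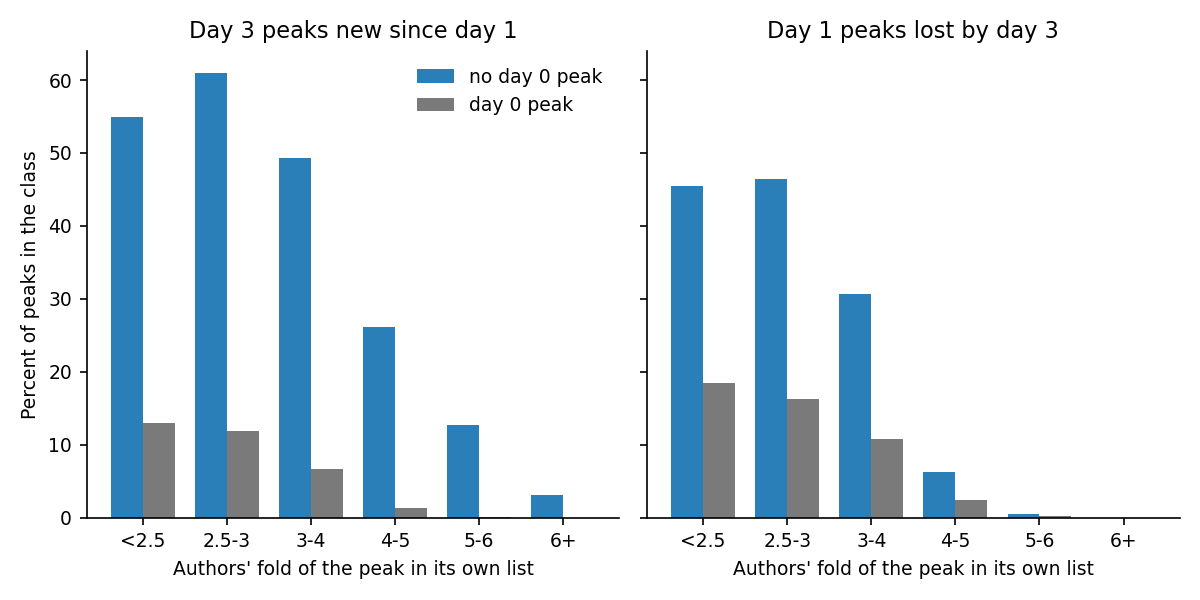
Percent of day 3 peaks that were new (left) and of day 1 peaks that were lost (right), by the authors' fold in the peak's own list and by the presence of a day 0 peak. From a fold of 2.5 to 3 upward both shares fall as fold grows, and at a fold of 5 to 6 without a day 0 peak 12.7% of day 3 peaks were new while 0.527% of day 1 peaks were lost.

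The strong new peaks were almost all regions first called on day 3. Of the 135, 134 had no day 0 peak, against 4236 of all 21417 strong day 3 peaks and 87.8% of all new peaks. The region with the highest fold, chr5:32852403-32853000, held 83 summit reads on day 3 at a fold of 9.25 and lay 89627 bp from the nearest day 1 peak. The smallest -log10 p of the day 1 list would have been reached there from 19 reads upward, taking the local background to scale with depth. Its scaled summit was 3.92 times the level of those 19 reads. It stayed high, with 68 reads and a fold of 8.46 on day 7. The next region, chr2:53580314-53580983, held 67 reads on day 3 (fold 8.80) and 35 on day 7 (fold 5.07). At chr6:52321617-52322347 the day 3 summit was equal to that one, 67 reads and a fold of 8.80, but day 7 held only 23 reads at a fold of 3.38. These 3 regions had no peak on day 0 or day 1, and they differed in how much of the day 3 height was left on day 7, though ranking by day 3 fold favours a day 3 maximum.

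The other 7 of the 10 new peaks with the highest fold had 60 to 71 summit reads on day 3 and folds of 7.90 to 8.51. They lay at chr15:48298163-48298822, chr12:108666793-108667500, chr10:29577740-29578322, chr8:24526291-24526771, chr4:157397457-157397918, chr22:31228501-31229038 and chr8:76131200-76131831. All 7 lacked a peak on day 0 and day 1 and had one on day 7. The chr8:24526291-24526771 region was nearly level from day 3 to day 7, with 62 and 60 reads and folds of 8.15 and 8.24. The chr4:157397457-157397918 region had 61 reads on day 3 and 26 on day 7, with folds of 8.03 and 3.80. Over the 10 regions the scaled day 3 summit was 3.37 to 3.92 times the level that reaches the smallest -log10 p of the day 1 list. That is the lowest value of any day 1 peak, and reaching it does not ensure a call.

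Regions that returned on day 3 had a lower median fold than new regions without a day 0 peak, 2.85 against 3.00, but a higher median scaled summit, 4.76 against 4.31. The returned region with the highest fold, chr16:62160291-62160716, was the single strong one, with 31 summit reads on day 0 (fold 4.36), no peak on day 1, 52 reads on day 3 (fold 6.86) and 32 on day 7 (fold 4.65). It was isolated, 1234260 bp from the nearest day 1 peak. The next, chr16:33458896-33459223, had 27, 45 and 26 reads on days 0, 3 and 7, and chr8:40809078-40809489 had 29, 42 and 28. At chr15:71732885-71733173 and chr1:174952304-174952674 the day 0 summits of 36 reads each were closer to those of day 3, 43 and 41 reads. All 5 had their most reads on day 3, which their choice by day 3 fold favours. Counted from day 0, 3008 of the 10494 day 0 peaks that were absent on day 1 (28.7%, 27.8 to 29.5) overlapped a day 3 peak.

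New peaks lay about as far from day 1 peaks as shared peaks lay from their neighbours. Beside a day 1 peak, meaning a gap of at most 1000 bp between edges, lay 4112 new peaks, or 17.1% (16.6 to 17.6). For shared day 3 peaks, measured to the nearest day 1 peak they did not overlap, the share was 17.8% (17.6 to 18.1). The median gap was 5418 bp for new peaks and 4816 bp for shared ones. At a gap of at most 500 bp the shares were 9.99% and 9.46%, at most 5000 bp 47.2% and 51.6%, and at most 10 kb 69.7% and 75.1%. The order thus turned between 500 and 1000 bp. A gap above 10 kb set apart 7300 new peaks (30.3%). Returned peaks lay beside a day 1 peak more often than regions without a day 0 peak, 24.6% (23.1 to 26.2) against 16.0% (15.5 to 16.5).

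**Figure D3:**
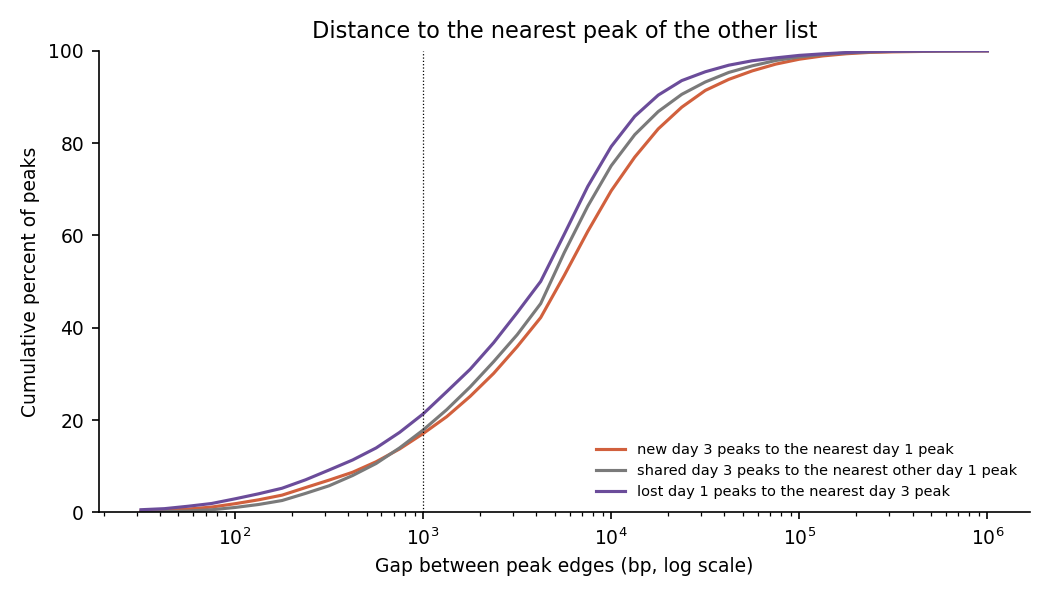
Cumulative percent of peaks by the gap in bp to the nearest peak of the other list (log axis), for new day 3 peaks, shared day 3 peaks and lost day 1 peaks. The dotted line marks 1000 bp, where the 3 curves stand at 17.1%, 17.8% and 21.3%.

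The day 1 peaks next to new peaks were themselves less often old ones than the day 1 list at large. Of the 4112 new peaks beside a day 1 peak, 50.9% (49.4 to 52.5) had a nearest day 1 peak that overlapped a day 0 peak, against 63.4% of the whole day 1 list. In 845 of the 4112 cases (20.5%, 19.3 to 21.8) that neighbour was itself lost by day 3, against 14.7% of the whole day 1 list. These shares are not matched for day 0 state, and 29.4% of day 1 peaks without a day 0 peak were lost against 6.17% with one. The part of day 0 state in the difference was not tested. The neighbours that were shared 1-to-1 showed little change of their own. The 1268 without a day 0 peak had a median log2 summit change of 0.14 from day 1 to day 3, against 0.10 for all such pairs, and the 1801 with a day 0 peak had -0.15, as did all such pairs.

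Strength by distance depended on the scale. New peaks within 200 bp of a day 1 peak had a median fold of 2.61, and those over 50 kb away 3.49. By scaled summit the order was the opposite, 5.20 against 3.87 times the genome background. The local background, by which fold divides, had a median of 1.85 times the genome background in the near class and 1.00 in the far class. Strong new peaks, which are defined by fold, were correspondingly far from others: 97 of 135 (71.9%) lay over 10 kb from any day 1 peak and 2 lay beside one. These 2 were chr10:17418907-17419378, 582 bp away, with 51 reads on day 3 (fold 6.73) and no peak on any other day, and chr17:63663954-63664897, 458 bp away, with 57 reads (fold 6.22) on day 3 and 28 on day 7. The next among peaks beside a day 1 peak were chr4:167576881-167577503, chr20:43478935-43479296 and chr10:95004101-95004933, with day 3 folds of 5.43, 5.41 and 5.34.

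Most new peaks, 17070 of 24073, had no other new peak within 10 kb. Lost and shared peaks were not grouped in this way, so there is no share to compare. Linking new peaks across gaps of up to 10 kb left 17070 of 20255 groups with a single peak, while 505 had at least 3 and 22 had at least 5. The largest, of 6 new peaks each, were picked after their values were seen. Within the 22.8 kb at chr7:76945920-76968702, day 0 and day 1 had 1 peak each, day 3 had 7 and day 7 had 2, and none of the 6 new peaks had a day 0 peak. At chr12:110123900-110145226 the counts were 2, 3, 8 and 3. Among the groups of 5, chr10:80659705-80684392 held 0 peaks on days 0 and 1, then 5 on day 3 and 3 on day 7. Folds in these groups were modest, with 5.49 at the highest peak of the chromosome 10 group and 4.05 at that of the chromosome 7 group.

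Strong peaks were rarely lost, and the 4 that were had all been open on day 0. So had 19572 of all 22130 strong day 1 peaks. At chr10:50489477-50489919 the summit held 40 reads on day 0 (fold 5.58), 48 on day 1 (fold 6.60), no peak on day 3 and 33 on day 7 (fold 2.98). At chr4:167941585-167941945 it held 38 and 44 reads on days 0 and 1 and 34 on day 7, again with no peak on day 3. The other strong lost peaks, chr20:10938086-10938446 and chr17:67502608-67503088, each had 26 reads on day 0 and 42 on day 1 and no peak later. At each of the 4, the smallest -log10 p of the day 3 list would have been reached from 18 reads upward. The fifth lost peak with a day 0 peak, chr7:132615664-132616042, was also absent on day 3 alone, with 33, 39 and 33 reads on days 0, 1 and 7. So 3 of these 5 regions were missing on day 3 alone.

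Lost peaks without a day 0 peak reached a fold of 5.82 at most. That region, chr4:42819519-42819854, had no day 0 peak, 40 reads on day 1, no peak on day 3 and 20 reads on day 7 (fold 2.96). The next 4, chr8:115535169-115535607, chr19:43415544-43415849, chr2:218701927-218702253 and chr2:223789798-223790338, had 37 or 38 reads on day 1 and folds of 5.40 to 5.54. Of the 5 regions, 3 had a peak again on day 7.

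Shared peaks were compared as 89128 1-to-1 pairs, in which a day 1 and a day 3 peak overlap only each other. Median summit changes lay on opposite sides of 0 by day 0 state. The median log2 change of the scaled summit was -0.11 over all pairs (SD over pairs 0.30). Over the 62369 pairs with a day 0 peak it was -0.15 (SD 0.22), and 20.9% of them were higher on day 3. Over the 26601 pairs without a day 0 peak it was 0.10 (SD 0.38), and 61.3% were higher. In reads, the median summit went from 73 to 74 in the former and from 37 to 47 in the latter, while the genome background grew 1.11-fold. A pair with equal reads on both days stands at -0.15 on the scaled measure, so the size of the fall in the former depends on the scaling. By the authors' fold, 37.6% of the former and 59.6% of the latter were higher on day 3, and the medians were -0.048 and 0.063, in the same order. Relative to the median of all pairs, a shift that cannot change the order, they were -0.041 and 0.21. The order also held at like depth: with pairs split in 4 equal parts by summed reads, the classes stood at -0.11 and 0.04 in the lowest part and -0.17 and 0.07 in the highest. Pairs hold only peaks called on both days, so the 29.4% of day 1 peaks without a day 0 peak that were lost are not in these medians.

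**Figure D4:**
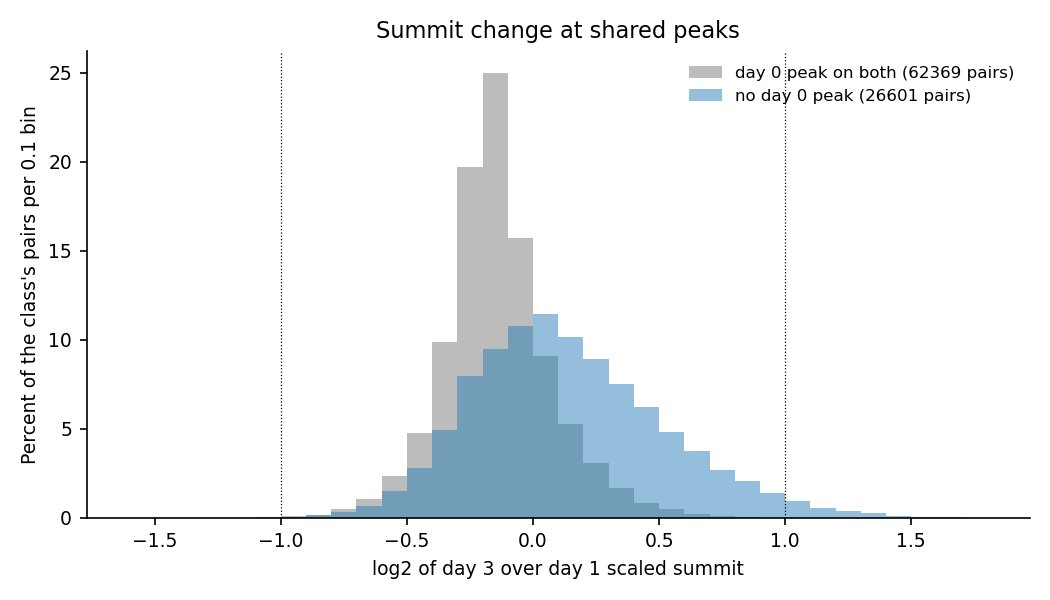
Distribution of the log2 change in scaled summit from day 1 to day 3 over 1-to-1 pairs, as percent of each class per bin of 0.1, with dotted lines at 2-fold. Pairs with a day 0 peak centre at -0.15, and pairs without one centre at 0.10 with a wider right side.

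Summits that were much higher on day 3 lay almost wholly in regions without a day 0 peak. A scaled summit at least 2-fold higher on day 3 was seen in 619 pairs (0.695%), and 615 of these (99.4%, 98.4 to 99.8) had no day 0 peak, against 29.8% of all pairs. A summit at least 2-fold lower was seen in 22 pairs (0.0247%), 12 with a day 0 peak on both days and 9 without. The 619 had a median of 26 summit reads on day 1 and 65 on day 3, or scaled summits of 4.30 and 9.66. Their median fold was 3.55 on day 1 and 6.65 on day 3, and their local background was higher on day 3 by a median log2 value of 0.37. By the authors' fold, 202 pairs were at least 2-fold higher, 201 of them without a day 0 peak, and 6 lower, and relative to the median of all pairs 1061 were higher and 6 lower. A peak was called on day 7 at 604 of the 619 (97.6%), against 69.5% of all pairs without a day 0 peak, and the 604 had a median scaled summit of 8.03. This comparison is at unlike strength, since all pairs without a day 0 peak had a median day 3 fold of 3.75 against 6.65. Among shared day 3 peaks without a day 0 peak, 91.7% were called on day 7 at a fold of 5 to 6. At a fold of 6 or more, 98.1% of them were. New peaks lay within 10 kb of 31.5% of the 619 (27.9 to 35.3) and of 29.3% (28.8 to 29.9) of all pairs without a day 0 peak.

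The 5 pairs with the highest summit ratio, among those with at least 30 reads on both days, all lacked a day 0 peak. At chr9:4581229-4582391 the summit held 30 reads on day 1, 108 on day 3 and 79 on day 7, a ratio of 3.23 from day 1 to day 3 (2.14 to 5.02). Its fold went from 4.07 to 7.51 and its local background was 1.83 times as high. At chr15:89279294-89279992 the reads were 33, 110 and 85 on days 1, 3 and 7, a ratio of 2.99 (2.01 to 4.56), and the fold reached 10.2 on day 3. Those at chr3:124781740-124782505, chr5:173251042-173251746 and chr10:116666743-116667883 had ratios of 2.79, 2.72 and 2.67. In all 5 the peak also became wider, by 1.17 to 1.74 times, and the summit position moved by at most 21 bp. These intervals do not allow for the choice of the highest among all pairs.

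The pairs with the lowest ratios were at 0.467 to 0.504 of day 1. The lowest, chr20:34342782-34343199, had no day 0 peak, 75 reads on day 1, 39 on day 3 and no peak on day 7 (ratio 0.467, 0.309 to 0.697). At chr2:96830211-96830884 the reads were 46, 56, 30 and 41 on days 0, 1, 3 and 7 (ratio 0.481, 0.298 to 0.763). Near it, at chr2:96765903-96766503, they were 51, 66, 37 and 51. Both were chosen for a low day 3 summit, and on day 7 they held 41 and 51 reads against 46 and 51 on day 0. The others were chr2:232566318-232567042, where the peak was 725 bp wide on day 1 and 208 bp on day 3, and chr12:13199563-13200114, with 98 reads on day 1 and 54 on day 3. At chr2:232566318-232567042 the day 1 and day 3 summits lay 396 bp apart.

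Peak width changed little at the median and was larger on day 3 in regions without a day 0 peak. The median log2 width change was 0.015 over all pairs (SD 0.40), -0.0089 with a day 0 peak (median widths 603 and 592 bp) and 0.16 without one (393 and 467 bp). At least 2-fold wider on day 3 were 2120 pairs (2.38%), and at least 2-fold narrower 886 pairs (0.994%). Of the wider pairs 1705 (80.4%) had no day 0 peak, and of the narrower pairs 356 (40.2%) had none, against 29.8% of all pairs. Both changes were thus more frequent without a day 0 peak than with one. Wider were 6.41% against 0.622% of pairs, and narrower 1.34% against 0.816%. The wider pairs went from a median of 256 bp to 639 bp, and 87.7% of them also had a higher scaled summit, though only 240 (11.3%) had one at least 2-fold higher. The largest gain in width as a ratio was at chr5:131594758-131595933, 200 bp on day 1 and 1117 bp on day 3, where day 0 had a peak of 277 bp and the summit ratio of 1.38 (0.838 to 2.31) had an interval that includes 1. The day 1 and day 3 summits compared there lay 312 bp apart. At chr12:58819156-58820285 width and height grew together, from 207 to 1130 bp and from 19 to 56 reads (ratio 2.65, 1.55 to 4.72), with 58 reads on day 7. At chr2:205529329-205530409 the peak went from 200 to 1081 bp and from 23 to 55 reads. Width is measured where the signal crosses the caller's limit, so width and height are not independent measures.

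Summit positions were stable. The 2 summits of a pair lay a median of 35 bp apart, 29 bp with a day 0 peak and 51 bp without one, and 4.26% of pairs had moved by more than 200 bp. The shift was larger where reads were few, with medians of 55 and 65 bp in the lowest of the 4 parts by summed reads and 18 and 21 bp in the highest, for pairs with and without a day 0 peak.

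Neighbouring peaks also joined and split. A day 3 peak covered parts of at least 2 day 1 peaks in 1646 cases, 35 of them with 3 day 1 peaks, and a day 1 peak was split over at least 2 day 3 peaks in 1455 cases. A day 0 peak was present at 66.6% of the joining peaks and 80.1% of the splitting ones. In the whole lists it was present at 68425 of 117606 day 3 peaks and 69659 of 109876 day 1 peaks. Joining and splitting peaks were also wide, with medians of 1063 and 1032 bp against 471 and 467 bp in the day 3 and day 1 lists. The part of width in these shares was not tested. The longest joined peak, chr14:61188061-61191416, spanned 3356 bp on day 3 over day 1 peaks of 2577 and 680 bp that lay 82 bp apart, and its day 0 peak had already spanned 3256 bp. Its summit held 184, 179, 178 and 176 reads on days 0, 1, 3 and 7. As scaled summits these were 29.0, 29.6, 26.5 and 28.8, with the lowest on day 3. Of the next 4, chr12:46764957-46767885 bridged a gap of 52 bp, chr1:172384353-172387347 one of 149 bp, chr6:32936017-32938897 one of 194 bp, and chr10:102756546-102759626 one of 334 bp. At chr12:46764957-46767885 a single peak had likewise been called on day 0, of 2843 bp. The smallest gap between neighbouring peaks within either list was 51 bp.

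The day 7 list, which played no part in choosing new or lost peaks, separated weak from strong gains. Of all new peaks 34.5% (33.9 to 35.1) overlapped a day 7 peak, against 69.3% (68.8 to 69.9) of shared day 3 peaks without a day 0 peak and 94.3% of those with one. By fold, the share of new peaks without a day 0 peak that were called on day 7 was 21.6% below 2.5, 23.2% at 2.5 to 3, 34.9% at 3 to 4, 63.1% at 4 to 5, 86.8% at 5 to 6 and 97.0% at 6 or more. Shared peaks without a day 0 peak stood at 42.9%, 46.9%, 61.6%, 80.0%, 91.7% and 98.1% in the same classes. New peaks were thus lower in each class, and the distance was widest at a fold of 3 to 4 and narrowed above it. Returned peaks were called on day 7 in 47.5% of cases. Of the lost peaks, 40.9% (39.5 to 42.4) of those with a day 0 peak and 17.4% (16.7 to 18.1) of those without one were called again on day 7.

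**Figure D5:**
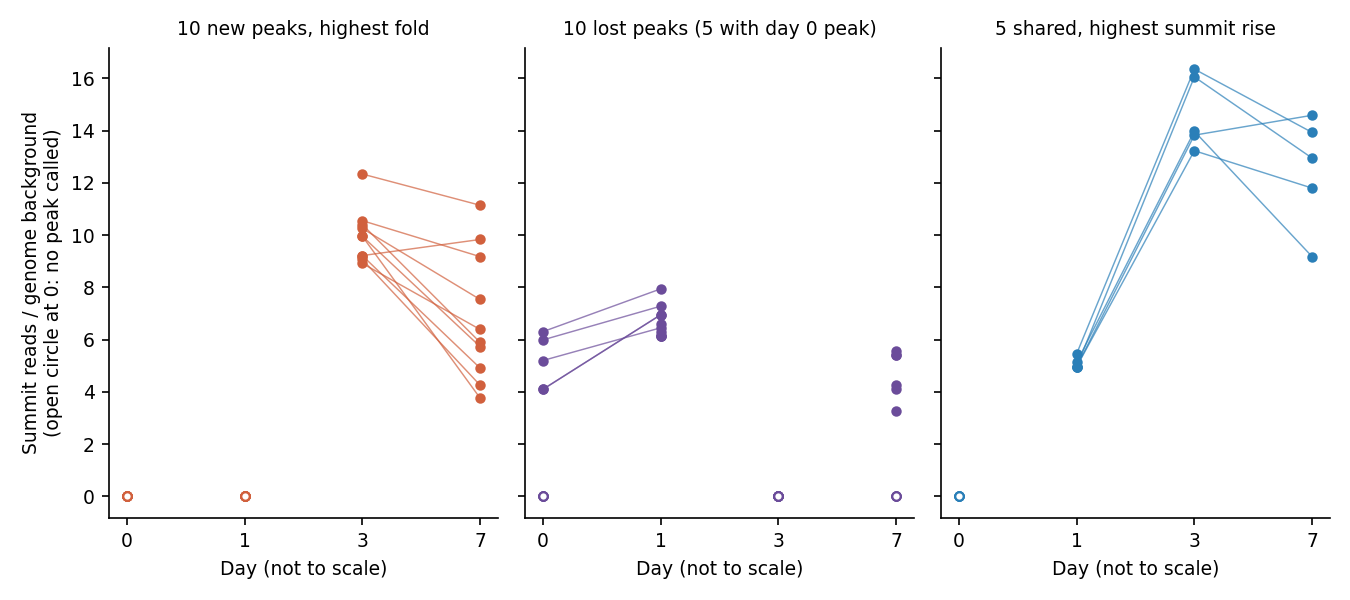
Scaled summits (summit reads over the genome background of the day's list) on days 0, 1, 3 and 7, for the 10 new peaks with the highest fold, 10 lost peaks (the 5 with the highest fold among those with and without a day 0 peak) and the 5 shared pairs with the highest summit ratio. Open circles at 0 mark days without a called peak, not a measured level of 0, and lines join called peaks on successive days.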

How the data were processed

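Per the submitters' processing notes, Bowtie2, deepTools and MACS2 (version 2.1.1.20160309) were used with hg19. The sources used here do not state read filters, transposase offsets or pooling of replicates. The deposited narrowPeak file gives, per peak, the authors' score (the whole-number part of 10 times -log10 q), the fold as a ratio of summit to local background, the -log10 of the p-value and q-value, and the summit offset in bp. List names match days 1, 3 and 7 in the labels. Per the labels, samples averaged about 20000000 reads.

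Reads (n) were recovered from the deposited fold, (n + 1) / (background + 1), and the Poisson p-value. A whole number fitted all 411408 peaks within 0.005 in -log10 p. The commonest background value of a list (held by 20.6% of peaks on day 1 and 20.9% on day 3) was taken as genome-wide. The smallest called summits held 16 and 17 reads, so weak peaks carry wide counting error. On 5000 simulated regions, reads of 100% of peaks, and all 600 new and 200 tripled peaks, were recovered. The simulation had no counting error and no calling limit. It therefore checks the computing steps, not how well weak new or raised peaks are found.

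Overlaps were counted with NumPy 2.4.6 and checked with bedtools 2.31.1. Intervals are exact Clopper-Pearson for shares and exact conditional binomial for ratios (SciPy 1.17.1). pandas 2.3.3, matplotlib 3.10.9 and Python 3.11.15 were also used. The members, limits and alternatives were chosen with earlier results of these data known. Regions were named by rank: the 10 new peaks of highest fold, and the 5 highest of each further class by fold, summit ratio, width ratio or joined length. Summit ratio ranks required 30 reads on both days, and width ranks had no read limit.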

Additional observations from a re-analysis of the deposited data

How the results depend on the processing

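The 19 results were recomputed under 54 alternatives. In 35 a count moved by over 1.5 times, or a share or median left its 95% interval, and in 19 it did not. The medians of log2 change kept their sign, and counts and shares have none. Of the alternatives, 12 were added after seeing the data: the 1.5-fold limit, the shares lost by day 0 state, and the summit medians by day 0 state. With a reciprocal overlap of 50% there were 514 strong new and 102 strong lost peaks, the share of new peaks beside a day 1 peak was 35.7%, because partly overlapping peaks count as new and adjacent, and the share called on day 7 was 31.6%. The lost shares without and with a day 0 peak were then 39.0% and 8.24%, and with a -log10 q of at least 5 they were 27.2% and 5.77%. Under that limit 88.4% of new peaks had no day 0 peak, 14.5% lay beside a day 1 peak, 9 summits were at least 2-fold lower, 521 peaks were at least 2-fold narrower, the median summit shift was 32 bp, and the median log2 summit change was -0.12 over all pairs and 0.12 without a day 0 peak. With lists of equal length 11404 peaks were new, of which 78.9% had no day 0 peak and 10.0% lay beside a day 1 peak. Limits of 500 and 5000 bp gave 9.99% and 47.2% beside. Fold limits of 4 and 5 gave 2555 and 606 strong new and 660 and 46 strong lost peaks. By the authors' fold the median change was -0.026, 0.063 without and -0.048 with a day 0 peak, with 202 pairs at least 2-fold higher and 6 lower. Centred on the median, the classes stood at 0.21 and -0.041, with 1061 higher and 6 lower. A 1.5-fold limit gave 3670 higher and 1668 lower. Scaling new peaks to the depth of day 1 left 24070 above that list's smallest -log10 p. That value is the lowest of any peak in the list, so the count cannot say how many would be called at that depth.

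No paired analysis was possible because the deposited lists hold no values per replicate, so leaving out a replicate was not run either.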

Other observations

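The share of new peaks differed between chromosomes. It was lowest on chromosome 19, at 13.4% (12.4 to 14.4) of 4602 day 3 peaks, followed by chromosome 17 at 17.1% (16.1 to 18.0), and highest on chromosome 13, at 24.7% (23.1 to 26.3) of 2859, with chromosome Y left out. The lost share varied less, from 12.5% on chromosome X to 17.1% on chromosome 21. New peaks numbered 1.07 per lost peak on chromosome 19 and 1.75 on chromosome 13. Chromosome 19 also had the largest share of day 3 peaks that overlapped a day 0 peak, 76.6%, and chromosome 13 the smallest, 50.7%, and the part of this in the difference was not tested.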
